A study of Mus musculus with 40 samples.

Results

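The transcripts of 8 genes that carry out or restrain lytic and apoptotic cell death were followed in mouse mammary tumours: the caspases Casp1, Casp4, Casp6, Casp8, Casp9 and Casp12, the pore protein gene Gsdmd and the pseudokinase gene Mlkl. They were chosen by name, as the rows of the abundance tables whose Ensembl identifiers map to these symbols, and not by their measured values. All 8 were found among the 43346 genes of each table, and all 8 were among the 14928 protein-coding genes that passed the filter on low values.

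The tumours were spontaneous mammary tumours of MMTV-Wnt1 mice, which all carry a Wnt1 transgene under the control of the mouse mammary tumour virus promoter. Wild-type animals (labelled wild-type for Trp53 and Cdkn1a), p53-null animals and p21-null animals were either left untreated or given doxorubicin, a DNA-damaging topoisomerase poison, intraperitoneally at 4 mg/kg on each of 5 days, and treated tumours were taken 24 h after the last dose. RNA-seq of 40 tumours covered 34 mice: 6 untreated and 5 treated wild-type mice, 4 untreated and 5 treated p53-null mice, and 5 untreated and 9 treated p21-null mice. Ages are not stated in the labels, the promoter is active mainly in mammary epithelium, and 6 mice gave 2 tumours each, which were averaged into 1 value.

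Caspases are proteases that cut after aspartate. Casp8, downstream of death receptors, and Casp9, in the apoptosome, start apoptosis, and Casp6 is an effector that cleaves lamins. Casp1 and Casp4 are inflammatory caspases that cleave gasdermin D, the Gsdmd product, whose released fragment forms membrane pores (pyroptosis), whereas MLKL, phosphorylated by RIPK3, breaks the membrane in necroptosis, a route that active caspase-8 restrains.

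Levels are given as TPM, an abundance unit corrected for transcript length and library total, rescaled so that nuclear protein-coding genes sum to the same total in each tumour, because these genes made up 7.7% to 10.7% of the deposited TPM in the 12 wild-type tumours and 79.6% to 86.3% in the 28 null tumours. Per the labels' protocols, wild-type libraries used a stranded total RNA kit and both null genotypes another kit, so for levels the kit and the wild-type genotype cannot be told apart, and no wild-type level was tested against a null level. Gene-level Trp53 stood at 73.8 ± 9.15 (SD, n = 4) in untreated p53-null and 118 ± 13.2 (n = 5) in untreated p21-null mice, and Cdkn1a at 59.8 ± 18.0 (n = 5) in untreated and 276 ± 35.9 (n = 9) in treated p21-null mice, a rise (log2 fold change 2.24 ± 0.32 SE, limma adjusted p = 1.06e-05). The labels do not say which exons the null alleles lack, so these sums check neither label. Of 10 p53 target genes, Cdkn1a among them, 9 rose with doxorubicin in wild-type mice, 9 in p21-null mice and 0 in p53-null mice, where 3 had an unadjusted p under 0.05 (limma, Benjamini-Hochberg). Mammary markers were present in every group, the summed level of 7 luminal markers lying between 2500 and 6550 and that of 7 basal markers between 1770 and 5530.

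After doxorubicin, 4 of the 8 genes rose in p21-null tumours (Casp1, Casp4, Gsdmd and Mlkl) and 1 fell (Casp6). In p53-null tumours 3 rose (Casp1, Casp4 and Mlkl), and in wild-type tumours 1 rose (Gsdmd). The test was limma on log2(rescaled TPM + 1) with 1 value per mouse and Benjamini-Hochberg adjustment over all 14928 genes at 0.05, and folds are on this scale. At an unadjusted limma p under 0.05 there were 5 of the 8 genes in p21-null, 6 in p53-null and 4 in wild-type tumours. Numbers of mice differ between the groups, so the counts of genes called do not rank the genotypes. Over all tested genes, 5.0% rose and 4.03% fell in p21-null tumours, 1.17% rose in p53-null tumours, and 3.73% rose in wild-type tumours. The median log2 fold change of the 8 genes was 0.61 in p21-null, 0.67 in p53-null and 0.28 in wild-type tumours, beside -0.09, 0.05 and 0.04 for all genes.

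**Figure D1:**
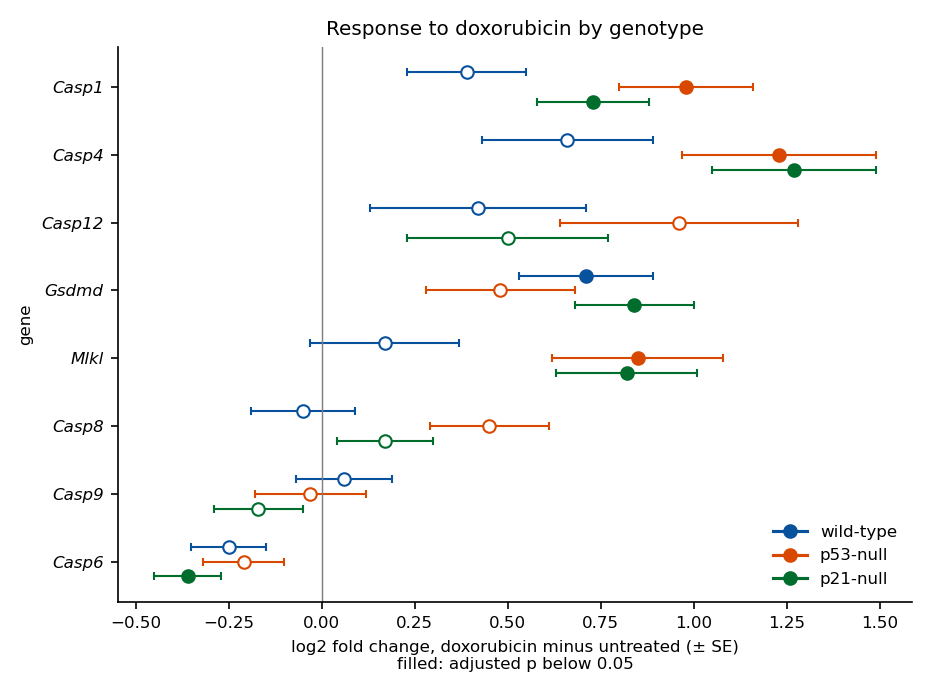
Log2 fold change of each gene with doxorubicin (x axis, treated minus untreated, points with SE) in wild-type, p53-null and p21-null mice, with filled points for an adjusted p under 0.05. Casp4 has the highest points in both null genotypes (1.23 and 1.27), whereas Casp9 lies between -0.17 and 0.06 and Casp6 between -0.36 and -0.21.

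Casp1, the caspase that inflammasomes activate, had the highest mean level of the 8 genes in treated null tumours. In p53-null mice it stood at 22.9, 30.9, 33.2 and 34.2 untreated, and at 55.3, 55.9, 60.3, 63.5 and 64.9 after doxorubicin. Every treated mouse lay above every untreated one, and the rise was 1.97-fold (log2 fold change 0.98 ± 0.18 SE, limma adjusted p = 0.00233). In p21-null mice the lowest, median and highest values were 24.7, 32.4 and 35.4 untreated (n = 5) and 36.1, 54.6 and 79.6 treated (n = 9). The groups again did not overlap, with a 1.66-fold rise (0.73 ± 0.15, limma adjusted p = 0.00126). In wild-type mice the values were 21.4 to 37.6 untreated (median 27.2, n = 6), and 24.2, 35.1, 37.5, 40.9 and 46.3 treated. These groups overlapped and the test was not passed (0.39 ± 0.16, limma adjusted p = 0.168). A mouse is named by m and its number. Without treated wild-type mouse m824, the lowest of its group, the value was 0.53 with an adjusted p of 0.0499. Wild-type Casp1 passed in no other alternative, and with each mouse left out in turn the value ran from 0.3 to 0.53.

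Casp4, whose mouse product binds cytosolic lipopolysaccharide directly, had the highest fold change of the 8 genes in both null genotypes. In p53-null mice it stood at 7.14, 7.48, 8.84 and 11.6 untreated and at 16.5, 20.1, 22.4, 24.2 and 25.5 treated. In p21-null mice it stood at 5.65, 6.58, 8.59, 9.16 and 9.29 untreated, and at 9.79, 22.8 and 30.3 (lowest, median and highest of 9) treated. In both genotypes the treated mice lay above all untreated ones. The rise was 2.34-fold in p53-null (1.23 ± 0.26, limma adjusted p = 0.00814) and 2.41-fold in p21-null mice (1.27 ± 0.22, limma adjusted p = 0.000137). Wild-type values ran from 5.37 to 15.9 untreated (median 10.2, n = 6) and were 10.6, 16.8, 17.7, 18.9 and 19.5 treated. All but the lowest treated mouse, m824, exceeded the untreated range, and the test was not passed (0.66 ± 0.23, limma adjusted p = 0.0989). Leaving out mouse m824 gave 0.81 with an adjusted p of 0.0494. Wild-type Casp4 too passed in no other alternative, with a range of 0.5 to 0.81 when each mouse was left out. When the p53-null comparison was fitted on its own groups alone, where 1 of 13642 genes passed, Casp1 and Casp4 had adjusted p of 0.0773 and 0.0949 in that genotype. Groups did not overlap for 3 higher genes among the 8 in p53-null and for 3 higher and 1 lower in p21-null mice, against 3.43% and 4.21% of all tested genes in either direction.

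Casp12, a mouse caspase of the endoplasmic reticulum, did not pass the treatment test in any genotype. In p53-null mice it stood at 8.26, 18.3, 27.8 and 27.9 untreated and at 24.9, 27.9, 43.1, 47.3 and 49.7 treated, which overlap (0.96 ± 0.32, limma adjusted p = 0.143). In p21-null mice it ran from 13.5 to 32.7 untreated (median 22.1, n = 5) and from 16.6 to 51.3 treated (median 32.1, n = 9; 0.50 ± 0.27, limma adjusted p = 0.25). Wild-type mice had 28.8 to 53.8 untreated (median 42.4, n = 6) and 48.2, 49.9, 51.0, 54.8 and 78.3 treated (0.42 ± 0.29, limma adjusted p = 0.492). Its spread was the widest of the 8 genes in each of the 4 null groups, with an SD of 0.45 to 0.77 on the log2 scale. In wild-type mice its SD was 0.33 untreated and 0.28 treated, where Casp4 had 0.50 and 0.33. 

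**Figure D2:**
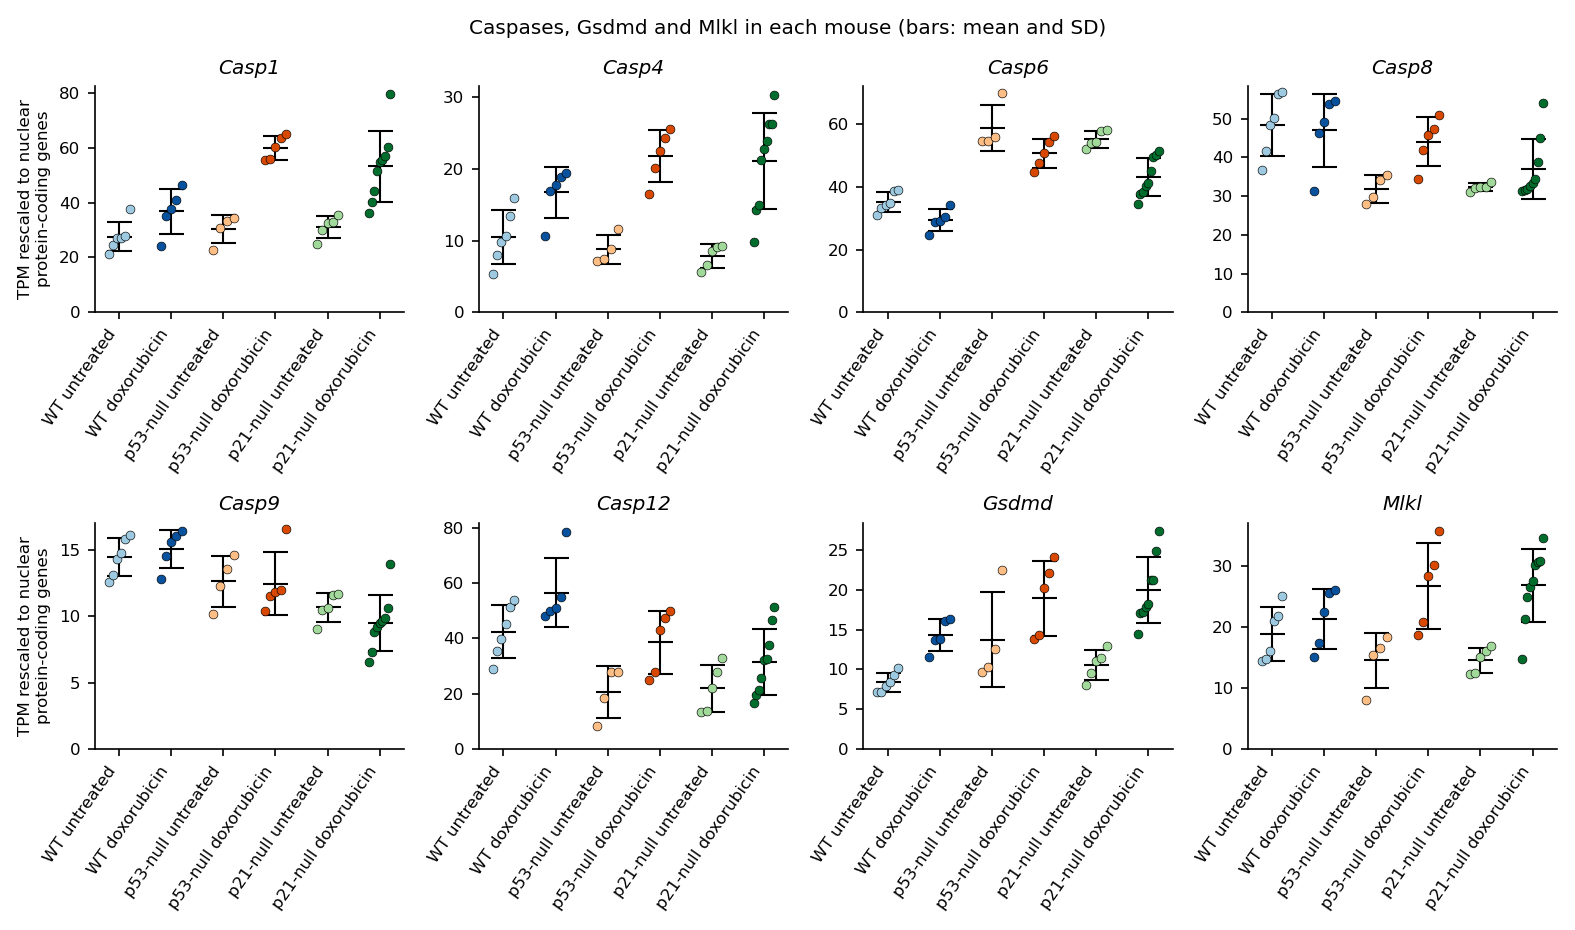
Rescaled TPM (y axis) of each gene in each mouse, 1 point per mouse, in the 6 genotype and treatment groups, with bars for the mean and SD. The 5 treated p53-null mice lie between 55.3 and 64.9 for Casp1, above the 4 untreated ones at 22.9 to 34.2, whereas Casp9 ranges overlap between treated and untreated mice in all genotypes.

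Casp1, Casp4 and Casp12 lie next to one another on the plus strand of chromosome 9 of GRCm38: Casp1 (ENSMUSG00000025888) at 5298517 to 5307265, Casp4 (ENSMUSG00000033538) at 5308828 to 5336783 and Casp12 (ENSMUSG00000025887) at 5345430 to 5373032. Their promoter windows, 250 bases before to 50 after the start site in RefSeq on GRCm38.p6, are shown because Casp1 and Casp4 passed in both null genotypes and Casp12 did not. The Casp12 estimate in p53-null mice (1.94-fold, limma unadjusted p = 0.00557) was near that of Casp1 (1.97-fold). Its SE on the log2 scale was larger, at 0.32 against 0.18. Whether the response of Casp12 differs from those of its neighbours was not tested. Capitals mark matches to the gamma-interferon activation site TTCNNNGAA, which reads the same on both strands. The windows are chr9:5298267-5298566, chr9:5308599-5308898 and chr9:5345226-5345525, in that order.
Casp1: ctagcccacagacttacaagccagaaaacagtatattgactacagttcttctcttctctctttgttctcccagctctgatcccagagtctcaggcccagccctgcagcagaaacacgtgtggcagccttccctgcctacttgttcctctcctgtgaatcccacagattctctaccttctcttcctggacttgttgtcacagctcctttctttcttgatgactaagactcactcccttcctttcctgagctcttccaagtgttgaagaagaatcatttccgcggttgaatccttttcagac
Casp4: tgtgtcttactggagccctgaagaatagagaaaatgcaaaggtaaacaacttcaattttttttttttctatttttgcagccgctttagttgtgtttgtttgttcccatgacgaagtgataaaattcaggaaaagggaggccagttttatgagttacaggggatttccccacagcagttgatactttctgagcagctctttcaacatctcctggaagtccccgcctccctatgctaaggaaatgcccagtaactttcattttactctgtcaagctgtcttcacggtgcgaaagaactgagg
Casp12: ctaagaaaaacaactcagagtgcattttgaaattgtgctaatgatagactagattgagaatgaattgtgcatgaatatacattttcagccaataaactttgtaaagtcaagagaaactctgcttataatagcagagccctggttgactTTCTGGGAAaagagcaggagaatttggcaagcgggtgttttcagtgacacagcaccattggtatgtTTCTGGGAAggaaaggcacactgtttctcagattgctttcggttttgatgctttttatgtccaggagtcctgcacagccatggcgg
The Casp12 window held the match TTCTGGGAA at -102 and again at -36 from the start site. Among 32851 windows of the same length, 8.3% held this site, 3.44% held the interferon-stimulated response element core (GAAA, 2 bases of any kind, GAAA) on either strand, and 8.36% held a p53 half-site. None of these motifs was found in the windows of Casp1, Casp4, Casp6, Casp8, Casp9 or Mlkl, and the last 2 were not found in that of Casp12. The table matched 7 of the 8 genes, all but Gsdmd.

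Gsdmd (ENSMUSG00000022575, chromosome 15, 75862327 to 75867408) encodes the pyroptotic pore former and was the only one of the 8 genes past the threshold in wild-type mice. There it stood at 7.12 to 10.1 untreated (median 8.17, n = 6), and at 11.5, 13.7, 13.9, 16.1 and 16.3 treated. No treated mouse overlapped the untreated range, and the rise was 1.64-fold (0.71 ± 0.18, limma adjusted p = 0.0142). In wild-type mice the groups did not overlap for 6.38% of all tested genes in either direction. In p21-null mice it rose 1.79-fold (0.84 ± 0.16, limma adjusted p = 0.000714), from 8.04, 9.55, 11.0, 11.4 and 13.0 to between 14.4 and 27.4 (median 18.2, n = 9). In p53-null mice the values were 9.64, 10.3, 12.5 and 22.5 untreated, and 13.8, 14.3, 20.3, 22.1 and 24.1 treated. A single untreated mouse, m2119 at 22.5, stood within the treated range, and the test was not passed (0.48 ± 0.20, limma adjusted p = 0.261). Without it the value was 0.72 with an adjusted p of 0.0485. On the deposited TPM, where wild-type Gsdmd lies between 0.64 and 2.01 and the added constant of 1 weighs more, the wild-type rise was 0.37 with an adjusted p of 0.596.

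Mlkl (ENSMUSG00000012519, chromosome 8, 111311797 to 111338177, minus strand), the executor of necroptosis, rose in both null genotypes. In p21-null mice it stood at 12.2, 12.5, 15.0, 16.1 and 16.8 untreated and at 14.7, 27.6 and 34.7 (lowest, median and highest of 9) treated, a 1.76-fold rise (0.82 ± 0.19, limma adjusted p = 0.00452). Treated mouse m4533, at 14.7, lay within the untreated range, while the other treated values were at least 21.3. In p53-null mice the values were 7.99, 15.3, 16.6 and 18.3 untreated, and 18.6, 20.9, 28.3, 30.2 and 35.7 treated. The 2 ranges came within 1 unit of each other without overlapping, and the rise was 1.81-fold (0.85 ± 0.23, limma adjusted p = 0.0451). This last call did not hold in 9 of 16 alternatives: without untreated mouse m881, the lowest, the value was 0.61 (adjusted p = 0.265), and without untreated mice m1556 or m2119 or treated mice m2237, m2688 or m2771 the adjusted p was 0.057, 0.0622, 0.13, 0.0652 and 0.146. The adjusted p was also 0.0585 with no filter on low values and 0.419 with the compared groups alone. In wild-type mice Mlkl ran from 14.4 to 25.0 untreated (median 18.5, n = 6) and from 15.2 to 26.0 treated (median 22.4, n = 5), nearly the same range (0.17 ± 0.20, limma adjusted p = 0.737).

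Of the apoptotic caspases, Casp6 (ENSMUSG00000027997, chromosome 3, 129901425 to 129914103) was the only one that passed a treatment test, and it fell. In p21-null mice it stood at 52.0, 53.7, 54.1, 57.8 and 58.1 untreated, and at 34.5, 41.2 and 51.4 (lowest, median and highest of 9) treated. All 9 treated mice lay below all 5 untreated ones (-0.36 ± 0.09, 0.78-fold, limma adjusted p = 0.00991). The p53-null values were 54.5, 54.6, 55.9 and 69.8 untreated, and 44.6, 47.6, 50.6, 54.2 and 56.0 treated (-0.21 ± 0.11, limma adjusted p = 0.402). The wild-type values were 31.0 to 39.1 untreated (n = 6) and 24.6 to 34.0 treated (n = 5; -0.25 ± 0.10, limma adjusted p = 0.145). All 3 point estimates were below 0, and the wild-type and p53-null ranges overlapped between treated and untreated mice. With median-of-ratios scaling the wild-type value was -0.34 with an adjusted p of 0.0298.

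Casp8 (ENSMUSG00000026029, chromosome 1, 58795374 to 58847503) and Casp9 (ENSMUSG00000028914, chromosome 4, 141793612 to 141815976), the initiators of the death receptor and mitochondrial routes, did not pass in any genotype. Casp8 in p53-null mice stood at 28.0, 29.8, 34.0 and 35.6 untreated and at 34.3, 41.9, 45.8, 47.2 and 50.9 treated (0.45 ± 0.16, limma adjusted p = 0.157). A single treated mouse reached into the untreated range. In p21-null mice Casp8 was tight without treatment, from 31.0 to 33.8 (n = 5), and ran from 31.3 to 53.9 with a median of 33.5 after it (n = 9; 0.17 ± 0.13, limma adjusted p = 0.442). In wild-type mice it was 36.8 to 57.0 untreated and 31.3 to 54.5 treated (-0.05 ± 0.14, limma adjusted p = 0.91). Casp9 was the least abundant of the 8 genes in treated null mice. Its ranges were 12.6 to 16.1 and 12.8 to 16.4 in wild-type (0.06 ± 0.13, limma adjusted p = 0.88), 10.1 to 14.6 and 10.4 to 16.6 in p53-null (-0.03 ± 0.15, adjusted p = 0.964), and 9.01 to 11.7 and 6.55 to 13.9 in p21-null mice (-0.17 ± 0.12, adjusted p = 0.386), untreated first.

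With these changes the order of the genes by mean rescaled TPM, a per-length scale, differed between treated and untreated null tumours. Untreated p53-null mice had Casp6 first (58.7 ± 7.39, SD, n = 4), then Casp8 (31.9 ± 3.53) and Casp1 (30.3 ± 5.14), whose ranges overlapped, then Casp12 (20.6), Mlkl (14.6), Gsdmd (13.7), Casp9 (12.6) and Casp4 (8.76), each overlapping its neighbour. Untreated p21-null mice had the same first 5, and Casp4 was again last (7.85 ± 1.64, n = 5). In treated mice of both null genotypes Casp1 came first, at 60.0 ± 4.34 (n = 5) and 53.2 ± 12.8 (n = 9), Casp6 second at 50.6 ± 4.66 and 43.1 ± 6.10 with overlapping ranges, and Casp9 last at 12.5 ± 2.38 and 9.48 ± 2.09. Casp4 moved from the last place to the sixth, at 21.8 ± 3.58 and 21.1 ± 6.71. In wild-type tumours, made with the other kit, Casp8 (48.4 ± 7.97) and Casp12 (42.3 ± 9.58) came first untreated and Gsdmd came last in both groups.

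Whether the response differed between genotypes was tested directly as the difference of fold changes. None of the 8 genes passed in any of the 3 differences, for which 0.69% (p21-null minus p53-null), 0.744% (p53-null minus wild-type) and 0.0804% (p21-null minus wild-type) of all genes passed in either direction. At an unadjusted p under 0.05 there were 3 genes for p53-null minus wild-type, 1 for p21-null minus wild-type and 0 for p21-null minus p53-null in limma, the tool used for these tests. The Casp1 response was higher in p53-null than in wild-type mice by 0.58 ± 0.24 (95% interval 0.09 to 1.08, limma adjusted p = 0.356), that of Mlkl by 0.69 ± 0.31 (0.06 to 1.31, adjusted p = 0.392) and that of Casp8 by 0.50 ± 0.21 (0.07 to 0.93, adjusted p = 0.361). For p21-null minus wild-type, Mlkl stood at 0.65 ± 0.28 (0.08 to 1.22, limma adjusted p = 0.553) and Casp4 at 0.61 ± 0.32 (-0.05 to 1.26, adjusted p = 0.565). Between the null genotypes, the Casp4 response differed by 0.04 ± 0.34 (95% interval -0.65 to 0.73) and that of Mlkl by -0.04 ± 0.30 (-0.64 to 0.57), intervals that span changes of either sign. Comparisons that share a genotype share its mice. Each difference against wild-type sets changes measured with 1 kit against changes measured with another, so an effect of the kit on the response cannot be told apart from genotype.

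**Figure D3:**
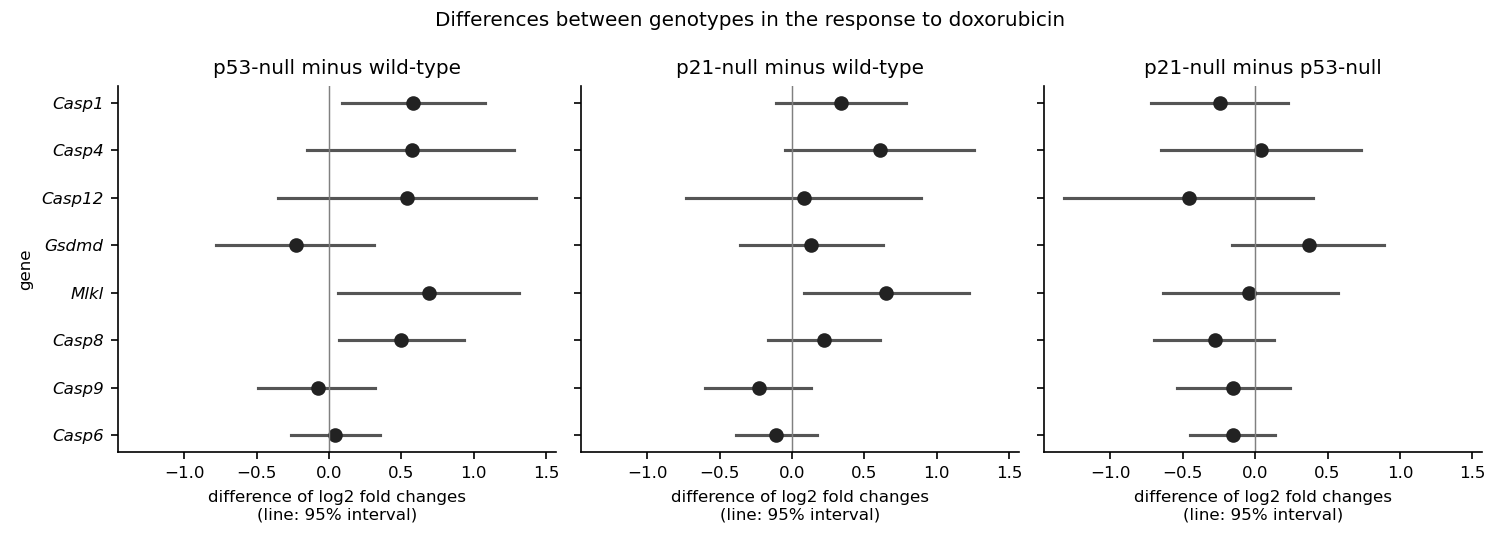
Difference between genotypes in the log2 fold change with doxorubicin (x axis; points, with lines for the 95% interval) for each gene and each pair of genotypes. Intervals lie wholly above 0 for Casp1, Mlkl and Casp8 in p53-null minus wild-type and for Mlkl in p21-null minus wild-type, and none of these passed after adjustment (lowest adjusted p 0.356).

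The null genotypes, whose libraries share a kit, were also compared at the same treatment. Untreated, none of the 8 genes passed in limma, with 0 below an unadjusted p of 0.05, a lowest adjusted p of 0.48, and 1.77% of all genes passing in either direction. Differences ran from -0.14 for Casp12 to 0.29 for Gsdmd, p53-null minus p21-null. Treated, Casp9 was higher in p53-null than in p21-null mice by 0.37 ± 0.12 (limma adjusted p = 0.0258), with means of 12.5 and 9.48 and ranges that overlapped. In this comparison 25.9% of all genes passed and 20.0% of all genes were higher in p53-null, and the median of all genes was 0.15. The Casp9 call did not hold with the deposited TPM (0.31, adjusted p = 0.0619), with median-of-ratios scaling (0.22, 0.0666) or with these groups alone (0.37, 0.116). It was also lost without treated p53-null mouse m2688 (0.27, 0.125) or p21-null mice m4132 (0.31, 0.0534) or m4534 (0.33, 0.0526). Casp6 stood at 0.24 ± 0.09 (limma adjusted p = 0.0548) and passed without mouse m2551, m4168, m4183 or m4380 (adjusted p = 0.0363, 0.0402, 0.0236 and 0.0276). Casp8 stood at 0.26 ± 0.13 (limma adjusted p = 0.141) and passed without mouse m4183 (0.33, adjusted p = 0.0377).

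These are bulk tumours, in which fewer cells of a type and less RNA per cell cannot be told apart, and leukocytes express several of the 8 genes. Of 12 macrophage markers, 6 rose with doxorubicin in wild-type, 7 in p21-null and 0 in p53-null mice, where 1 had an unadjusted p under 0.05 in limma. None of the 12 passed a difference of responses in limma. At an unadjusted p under 0.05 there were 5 for p21-null minus p53-null, 3 for p53-null minus wild-type and 0 for p21-null minus wild-type. No marker was at 0 in every tumour of a group. Their summed level ran from 1070 to 1680 in untreated and 1770 to 3550 in treated wild-type mice, from 1100 to 2000 and 1730 to 4640 in p21-null mice, and from 1380 to 1790 and 657 to 2990 in p53-null mice. The part of macrophages in the rises of Casp1, Casp4, Gsdmd and Mlkl was not tested. Treated p53-null mouse m2769 had the lowest macrophage sum of all 34 mice, 657, with Casp1 at 55.3 and Casp4 at 16.5, both above every untreated p53-null mouse. It was also the lowest of the 5 treated p53-null mice for Casp1, Casp4, Casp12 and Gsdmd, and its Gsdmd, 13.8, was below that of untreated mouse m2119 (22.5). Among treated p21-null mice, mouse m4168 had the lowest macrophage sum, 1729, and the lowest Casp4 (9.79) and Gsdmd (14.4), while its Mlkl was 30.1. Mouse m4533 had the highest Casp1 (79.6), Casp4 (30.3) and Gsdmd (27.4) and the lowest Mlkl (14.7) and Casp6 (34.5) of its group.

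**Figure D4:**
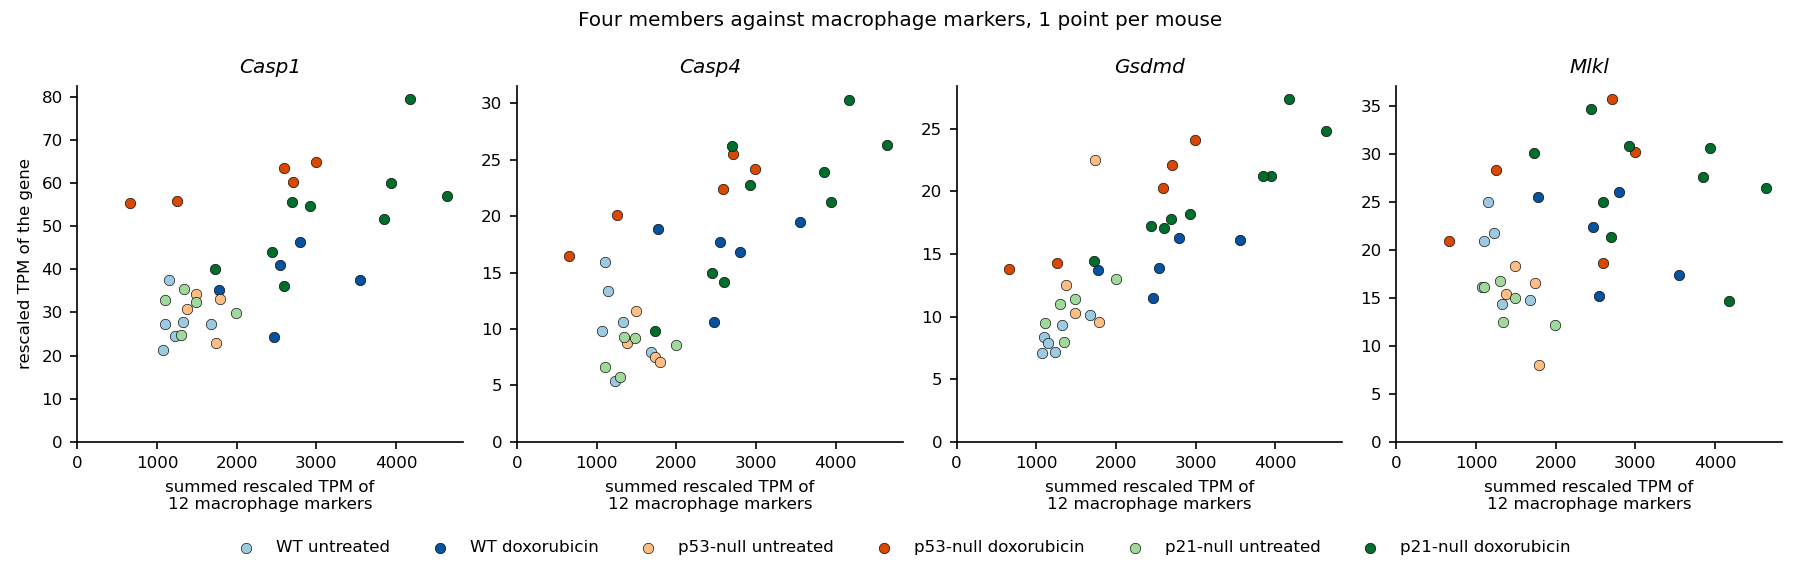
Rescaled TPM of Casp1, Casp4, Gsdmd and Mlkl (y axes) against the summed rescaled TPM of 12 macrophage markers (x axis), 1 point per mouse, coloured by group. The treated p53-null mouse at a macrophage sum of 657 is the lowest of the 5 treated p53-null mice for Casp1 (55.3), Casp4 (16.5) and Gsdmd (13.8); the first 2 values lie above all untreated p53-null mice and the Gsdmd value below 1 of them (22.5).

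Markers of other cells were counted in the same way. In wild-type, p53-null and p21-null mice, 1, 0 and 3 of 7 tested neutrophil markers rose, 0, 0 and 3 of 8 T cell markers, 0, 1 and 2 of 7 NK and cytotoxic cell markers, and 1, 0 and 0 of 5 B cell markers. No marker of luminal cells (7), basal cells (7), fibroblasts (8) or endothelium (6) passed in any genotype. Where a count was 0, the number of markers with an unadjusted limma p under 0.05 was between 0 and 2. No marker of these cell types passed a difference of responses, and at most 3 of a list had an unadjusted limma p under 0.05. Treated p53-null and p21-null mice did differ in markers, in a comparison where 25.9% of all genes passed. In p53-null mice 6 of 12 macrophage markers were lower, and 4 of 8 fibroblast and 4 of 6 endothelial markers higher. Of 7 neutrophil markers 1 was higher and 2 were lower, 1 of 8 T cell markers was higher and 1 of 7 basal markers lower. No luminal, NK and cytotoxic or B cell marker passed there (at most 2 of a list at an unadjusted limma p under 0.05). Neutrophil marker sums ranged from 243 to 684 in untreated and 491 to 6360 in treated p21-null mice, from 95.5 to 758 and 252 to 1360 in p53-null mice, and from 149 to 606 and 294 to 929 in wild-type mice. T cell marker sums were at most 20.5 in untreated and 72.7 in treated mice of any genotype. Their part in the results above was not tested either. Of 12 interferon-stimulated genes, 10, 12 and 11 rose in wild-type, p53-null and p21-null mice, with median log2 fold changes of 1.58, 1.96 and 2.39. None of the 12 passed a difference of responses in limma. At an unadjusted p under 0.05 there was 1 for p21-null minus wild-type and 0 for the other differences. Between untreated null groups, p53-null minus p21-null, the median of the 12 genes was 0.9. There, 1 passed in limma, higher in p53-null, and 7 had an unadjusted p under 0.05. Their mean log2 level per mouse ran from 3.30 to 4.35 untreated and 4.31 to 6.26 treated in wild-type, from 3.87 to 5.68 and 6.32 to 7.43 in p53-null, and from 3.82 to 4.46 and 5.72 to 6.80 in p21-null mice. Treated and untreated mice were thus apart in both null genotypes and overlapped slightly in wild-type mice. Casp1 and Casp4 were also apart in both null genotypes and overlapped in wild-type mice. For Casp1, treated wild-type values of 24.2, 35.1 and 37.5 lay under the highest untreated value, 37.6. For Casp4 this held for 10.6 alone, under 15.9. Gsdmd was apart in wild-type and p21-null mice and overlapped in p53-null mice, and Mlkl was apart in p53-null mice and overlapped in the others. The part of interferon signalling in these values was not tested.

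The 6 mice with 2 tumours showed how far the genes varied within an animal. The median absolute difference between the 2 tumours, on the log2 scale, was 0.22 for Casp6, 0.23 for Casp4 and Casp9, 0.26 for Casp1, 0.28 for Gsdmd, 0.32 for Mlkl, 0.44 for Casp8 and 0.70 for Casp12. Treated p53-null mouse m2551 stood apart. Its tumours had 11.8 and 42.0 of Casp4, 15.7 and 49.1 of Casp12, 12.3 and 33.1 of Gsdmd, and 12.7 and 27.0 of Mlkl. Casp6 was close between them, at 42.7 and 46.6. The tumour with the higher values also had the higher macrophage sum, 4130 against 1050, and the higher mean of interferon-stimulated genes, 7.10 against 5.54. Over all 6 pairs, the tumour with the higher macrophage sum had the higher value in 6 for Gsdmd, 5 for Mlkl, 4 for Casp4 and Casp6, and 3 for Casp1, Casp8, Casp9 and Casp12. For the mean of interferon-stimulated genes the counts were 6 for Casp4, 5 for Casp1, Casp8, Casp12 and Mlkl, 4 for Gsdmd and Casp6, and 3 for Casp9. Both sets of counts include near ties, such as Casp4 in mouse m1475 (19.49 and 19.47) and the macrophage sums of mouse m4116 (1490 and 1480). Such counts were not made for all tested genes, so how usual they are is unknown. In untreated p53-null mouse m1556, with the highest Casp1 difference, the tumour at 43.5 of Casp1 had a macrophage sum of 879 and the one at 21.8 had 1880. Taken as single tumours, p53-null Casp1 was still apart between untreated (at most 43.5) and treated (at least 52.0) samples, whereas Casp4 (13.9 and 11.8) and Mlkl (20.5 and 12.7) overlapped. With all 40 tumours as separate samples, the p53-null Mlkl value was 0.69 with a limma adjusted p of 0.0876.

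**Figure D5:**
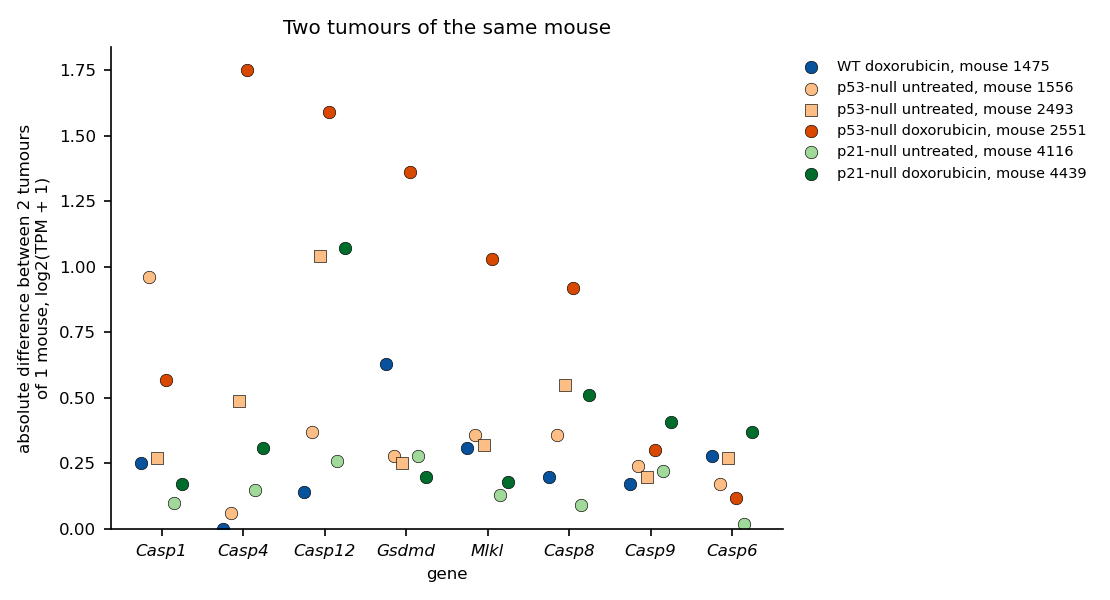
Absolute log2 difference in each gene (y axis) between the 2 tumours of each of 6 mice, coloured by group. Mouse m2551 has the highest difference for Casp4 (1.75), Casp12 (1.59), Gsdmd (1.36), Mlkl (1.03) and Casp8 (0.92), but not for Casp6 (0.12).

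Upstream partners of the apoptotic caspases were counted next. Of 10 genes of death receptor signalling, 3 rose in wild-type, 1 in p53-null and 3 in p21-null mice. Fas, the death receptor that recruits caspase-8, rose by 1.48 ± 0.22 in wild-type (limma adjusted p = 4.29e-05) and 1.72 ± 0.21 in p21-null mice (5.1e-07), and stood at 0.04 ± 0.25 in p53-null mice (0.962). Its response was lower in p53-null than in wild-type mice (difference -1.43 ± 0.33, limma adjusted p = 0.0291) and higher in p21-null than in p53-null mice by 1.68 ± 0.32 (adjusted p = 0.00408). No other gene of this list passed a difference of responses in limma (2, 1 and 1 of the 10 had an unadjusted p under 0.05 for p21-null minus p53-null, p53-null minus wild-type and p21-null minus wild-type). Tnfrsf10b, the TRAIL receptor, rose in wild-type (0.76, limma adjusted p = 0.0233) and p21-null mice (0.94, 0.000989) and stood at 0.38 in p53-null mice (0.467), and Tnfsf10, which encodes TRAIL, in p53-null (1.32, 0.0117) and p21-null mice (0.81, 0.0303). Tnfrsf1a, a receptor for TNF, rose in wild-type mice (0.55, limma adjusted p = 0.0116).

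Among 10 genes of the mitochondrial pathway and caspase inhibitors, 2 rose in wild-type, 1 in p53-null and 2 in p21-null mice. Bax, which permeabilises the outer mitochondrial membrane, rose by 1.33 ± 0.10 in wild-type (limma adjusted p = 1.63e-10) and by 1.33 ± 0.09 in p21-null mice (1.12e-11), and stood at -0.26 ± 0.11 in p53-null mice (0.283). Apaf1, the scaffold that activates Casp9, rose by 0.83 ± 0.16 in wild-type (limma adjusted p = 0.00106) and 0.72 ± 0.15 in p21-null mice (0.00138), and stood at -0.07 ± 0.18 in p53-null mice (0.902). The difference of responses, p21-null minus p53-null, passed for Bax (1.60 ± 0.15, limma adjusted p = 2.63e-08) and not for Apaf1 (0.79 ± 0.23, adjusted p = 0.125). Birc3, an inhibitor of apoptosis protein, rose in p53-null mice (0.65, limma adjusted p = 0.0337), and Diablo did not pass in any genotype.

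On the lytic side, 3 of 12 tested inflammasome genes rose in p21-null mice and 0 in wild-type and p53-null mice, where 3 and 2 had an unadjusted p under 0.05 in limma. They were Il1b (1.53 ± 0.34, limma adjusted p = 0.00323), a cytokine precursor that caspase-1 cuts, Il1a (0.97 ± 0.30, 0.0348) and the sensor Naip2 (0.68 ± 0.20, 0.0298). The sensor Nlrc4 stood at 0.47, 0.26 and 0.18 in wild-type, p53-null and p21-null mice, and Nlrp1a was below the filter. None of the 12 inflammasome genes passed a difference of responses in limma. At an unadjusted p under 0.05 there were 0 for p21-null minus p53-null, 0 for p53-null minus wild-type and 1 for p21-null minus wild-type. Of 7 necroptosis genes, 2 rose in wild-type, 2 in p53-null and 1 in p21-null mice. Zbp1, a nucleic acid sensor that engages RIPK3, rose in all 3 genotypes, by 1.52 ± 0.29, 1.81 ± 0.32 and 2.18 ± 0.26 (limma adjusted p = 0.000846, 0.0017 and 6.32e-07), Tlr3 rose in p53-null mice (0.89, 0.017), and Tnfrsf1a is on this list too. Ripk1 did not pass in any genotype (0.14, 0.44 and 0.03). Of 5 tested genes among 9 other gasdermin and membrane rupture genes, Ninj1, which ruptures the membrane after pore formation, rose (0.63, limma adjusted p = 0.0125) and Gsdma3 fell by 0.66 (0.0358) in wild-type mice. Gsdma3 lay near the floor there, with means of 1.43 untreated and 0.526 treated, whereas Ninj1 had 43.5 and 68.4. No gene of that list passed in the null genotypes (0 and 1 at an unadjusted limma p under 0.05 in p53-null and p21-null mice), where Gsdme and Gsdmc were also measured, and Gsdma2, Gsdmc2, Gsdmc3 and Gsdmc4 were below the filter.

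The genes whose pattern lay closest to each of the 8 were found over the 23 null mice, as the smallest root-mean-square difference in log2 level after centring each gene. Casp4 lay closest to Casp1 (0.31), then Tmem140 (0.34) and Smpdl3a (0.36), against a spread of its own of 0.70. Casp1 lay closest to Rxylt1 (0.26), Cd47 (0.27) and Tapbpl (0.28). Gsdmd lay closest to Slc2a6 (0.18), 5430427O19Rik (0.19) and H2-M3 (0.20), Mlkl to Mitd1 (0.23), Pml (0.29) and Trim25 (0.30), and Casp12 to Tlr4 (0.31), Cpq (0.31) and Camk2d (0.33). The apoptotic caspases varied less, and their nearest genes were Idh3a, Ints14 and Eif4b for Casp6 (0.13 each), Setdb2, Capza2 and Snx2 for Casp8 (0.14 each) and Dnajc16, Mgrn1 and Foxj2 for Casp9 (0.10, 0.10 and 0.12). Among pairs of the 8 genes, Casp1 and Casp4 differed by 0.31, below their own spreads of 0.47 and 0.70. Casp6 and Casp9 differed by 0.27, no less than their own spreads of 0.23 and 0.27, and Casp4 and Casp6 differed by 0.87. These mice share treatment groups, so likeness includes the response to doxorubicin.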

How the data were processed

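RNA-seq of 40 mammary tumours was analysed from the deposited table of each tumour, which gives TPM for 43346 genes and sums to 999998.9 to 1000001.0, so depth is unknown and no counting interval can be given. Per the submitters' processing notes the authors made these values with RSEM. The RSEM version was not given in the sources used here. The file names point to Ensembl release 79 gene models on GRCm38. Symbols came from GENCODE M21 annotation of that build (42462 identifiers matched, 884 did not). No tables were identical (0 pairs).

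TPM were rescaled to 21461 nuclear protein-coding genes. Tumours of 1 group whose titles share a mouse number (6 numbers) were taken as 1 mouse and averaged as log2(value + 1); nothing else in the labels says that samples are independent, so p-values measure the spread between these mice. Fold changes understate those of low genes. Genes at 1 or more in at least 4 mice (14928) were fitted with limma 3.58.1 (R 4.3.3, statmod 1.5.0, trended, robust), 6 group means together, 28 residual degrees of freedom, 8 contrasts, Benjamini-Hochberg at 0.05. The method was checked on simulated data, with log2 changes of size 1 or more planted in treated p21-null mice alone. Smaller changes and other groups were not covered by it. Alternatives (deposited scale, median-of-ratios scaling, other pseudocounts, no filter, separate tumours, compared groups alone, each mouse left out) were run for the 8 genes and not for the other lists. All 8 genes are named. Of each other list up to 4 genes with the smallest adjusted p over the treatment contrasts are named, and 3 genes of nearest pattern for each of the 8. A list of other caspases is not reported here. The genes, lists and rules were chosen with earlier results of these data known. RSEM divides reads between similar genes, so splitting among related gasdermin, Naip and caspase genes is uncertain. This includes the neighbours Casp1, Casp4 and Casp12.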

Additional observations from a re-analysis of the deposited data

Results flagged for a closer look

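In the 48 sets of a gene in a group, a mouse far from the rest of its group on the log2 scale was found in 3, where chance gives about 1 in 20. Casp12 was 78.3 in treated wild-type mouse m1127, with the other treated wild-type mice at 48.2 to 54.8. Casp4 was 10.6 in treated wild-type mouse m824, with the others at 16.8 to 19.5. Casp6 was 69.8 in untreated p53-null mouse m881, with the others at 54.5 to 55.9. Mouse m881 also had the lowest value of its group for 6 of the 8 genes, and its mean log2 level of interferon-stimulated genes was 3.87, against 5.23 to 5.68 in the other untreated p53-null mice. Without m881 the p53-null Mlkl value was 0.61 (limma adjusted p = 0.265, not called), and without m824 the wild-type Casp1 and Casp4 values were 0.53 and 0.81 (adjusted p = 0.0499 and 0.0494, called). These wild-type rises were called in no other alternative.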

How the results depend on the processing

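The count of genes called in p21-null mice was 5 in every alternative, and the counts for the 3 response differences and the untreated null comparison were 0 in every alternative. The wild-type count of 1 became 0 with deposited TPM and 2 with median-of-ratios scaling, and ranged from 1 to 3 with a mouse left out. The p53-null count of 3 became 0 with the compared groups alone and ranged from 2 to 3. The treated p53-null against p21-null count of 1 became 0 with deposited TPM, 0 with median-of-ratios scaling and 0 with these groups alone, and ranged from 0 to 3. Each of the 5 p21-null calls held in 21 of 21 alternatives. Of all genes, 557 rose and 199 fell in wild-type mice, but 378 and 358 with median-of-ratios scaling; the p21-null split was 746 and 601, then 1050 and 573, and that of the treated null comparison 2991 and 869, then 1729 and 1749. With median-of-ratios scaling the sign turned for Casp9 treatment in wild-type (-0.03), the Casp6 response difference of p21-null and wild-type (0.05), the Mlkl response difference between null genotypes (0.09) and Casp4 between treated null groups (-0.06). With 40 separate tumours it turned for that Mlkl difference (0.09) and for untreated Mlkl (0.03), and with deposited TPM for the Gsdmd difference of p53-null and wild-type (0.08). With mice left out in turn, log2 values that changed sign, none of them called, ranged for treatment from -0.12 to 0.09 (Casp8, wild-type) and -0.13 to 0.04 (Casp9, p53-null). For response differences they ranged from -0.09 to 0.16 (Casp4) and -0.16 to 0.21 (Mlkl) between null genotypes, -0.02 to 0.13 (Casp6) and -0.37 to 0.01 (Gsdmd) for p53-null minus wild-type, and -0.06 to 0.24 (Casp12) for p21-null minus wild-type. Between untreated null groups they ranged from -0.12 to 0.08 (Casp1), 0.00 to 0.11 (Casp6), -0.08 to 0.03 (Casp8), -0.32 to 0.22 (Casp12) and -0.17 to 0.20 (Mlkl), and between treated ones from -0.02 to 0.19 (Casp4), -0.17 to 0.02 (Gsdmd) and -0.12 to 0.11 (Mlkl). The cause was not tested. No paired analysis was possible because the groups share no replicate numbers. Depth is unknown, and wild-type values rest on the small protein-coding share of their libraries.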
